A study of Homo sapiens with 8 samples.

Results

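Chromosome 18 was followed arm by arm in chromatin accessibility maps of HSC-3 and KOSC-2, established lines grown from squamous carcinomas of the mouth. The chromosome was chosen by its difference in peak share between the lines. All peaks of chromosome 18 in 8 peak lists were merged wherever they shared at least 1 bp, which gave 1451 regions out of 80588 on chromosomes 1 to 22 and X. Regions starting below 15.4 Mb of build hg19 were assigned to the short arm (18p, 389 regions) and those starting at or above 18.5 Mb to the long arm (18q, 1062 regions), and 0 regions lay between. The last 18p region ran from 13849568 to 13850073 and was called in 1 HSC-3 library and 0 KOSC-2 libraries. The first 18q region ran from 18580734 to 18581033 and was called in 0 HSC-3 libraries and 1 KOSC-2 library.

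ATAC-seq uses the Tn5 transposase, which cuts open DNA and adds adapters to it, so that reads pile up where chromatin is accessible. HSC-3, labelled radioresistant, and KOSC-2, labelled radiosensitive, were each irradiated with 8 Gy or left at 0 Gy. Cells were frozen after 24 hours, and each line and dose has 2 libraries. Whether these are separate cultures is not in the labels, so spreads and p-values measure variation between libraries that may be technical. One line stands for each class of radiosensitivity, so the line and its class cannot be told apart.

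Chromosome 18 is one of the gene-poor human chromosomes, and loss of its long arm is a frequent alteration in squamous carcinomas of the head and neck. The long arm carries SMAD2 and SMAD4, which transmit signals of the transforming growth factor beta family, their inhibitor SMAD7, the netrin receptor gene DCC and the cell survival gene BCL2. It also carries the desmosomal cadherin genes DSC1 to DSC3 and DSG1 to DSG3, whose products hold epithelial cells together, the adhesion gene CDH2, and a group of serpin genes with SERPINB3 and SERPINB5. The short arm carries TYMS, which makes thymidylate for DNA synthesis, the kinase gene YES1, the homeobox gene TGIF1, the laminin gene LAMA1 and the phosphatase gene PTPRM. These genes were placed on the arms with the RefSeq table of GRCh38.p14, which counts 70 protein-coding genes on 18p and 200 on 18q. Set against these gene numbers, the merged regions amounted to 5.56 per gene on 18p and 5.31 per gene on 18q. Positions below are on hg19, for which no gene positions or sequence were used here, so regions are named by position and not by gene.

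The lists differed in length and in depth. HSC-3 lists held 22504 and 43089 peaks after 8 Gy and 41926 and 23490 after 0 Gy (replicates 1 and 2 of each dose). KOSC-2 lists held 51693 and 42407 peaks after 8 Gy and 38234 and 45471 after 0 Gy. Depth, read from the genome-wide background under the peaks, was 20.2 to 42.6 reads per 10 kb in HSC-3 and 24.3 to 64.8 in KOSC-2. The KOSC-2 0 Gy library replicate 1 was the deepest, and it had one of the 3 lowest enrichments together with both short HSC-3 lists (8 Gy replicate 1 and 0 Gy replicate 2). Because of the unequal lengths, counts below are given as shares of a library's own peaks.

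The long arm held a smaller part of the accessible regions in HSC-3 than in KOSC-2, while the short arm held a slightly larger part. On 18q, HSC-3 libraries had 162 and 450 peaks after 8 Gy and 430 and 185 after 0 Gy. KOSC-2 libraries had 749 and 613 peaks on 18q after 8 Gy and 455 and 674 after 0 Gy. Every HSC-3 count lay below every KOSC-2 count, by as little as 450 against 455, with list length not taken into account. As a share of the library's peaks, 18q held 0.720% and 1.04% in HSC-3 after 8 Gy and 1.03% and 0.788% after 0 Gy, against 1.45% and 1.45% in KOSC-2 after 8 Gy and 1.19% and 1.48% after 0 Gy. The mean share was 0.894% ± 0.165 in HSC-3 and 1.39% ± 0.135 in KOSC-2 (SD, n = 4 each), a ratio of 0.643 without overlap between the lines. This was the lowest ratio among 39 arms of chromosomes 1 to 22, just under that of 19p (0.647). Under 13 alternatives 18q had the lowest ratio in 5 and the second lowest in 8. Since this contrast chose the chromosome, the comparison is a description with no test, and 30.8% of the 39 arms were lower in HSC-3 without overlap.

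The short arm went the other way. HSC-3 libraries had 132 and 204 peaks on 18p after 8 Gy and 227 and 135 after 0 Gy, and KOSC-2 libraries had 231 and 154 after 8 Gy and 182 and 196 after 0 Gy. These were 0.587% and 0.473% of the peaks of HSC-3 after 8 Gy and 0.541% and 0.575% after 0 Gy, against 0.447% and 0.363% in KOSC-2 after 8 Gy and 0.476% and 0.431% after 0 Gy. The lines overlapped at one point, the HSC-3 8 Gy library replicate 2 (0.473%) and the KOSC-2 0 Gy library replicate 1 (0.476%). The mean was 0.544% ± 0.0508 in HSC-3 and 0.429% ± 0.0479 in KOSC-2 (SD, n = 4 each), a ratio of 1.27. Only 1 of the 39 arms had a higher ratio, and 23.1% of arms were higher in HSC-3 without overlap. Counted from the lowest ratio, 18p ranked 38. Its rank was 35 in lists of equal length, by covered bases and without KOSC-2 8 Gy replicate 2.

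**Figure D1:**
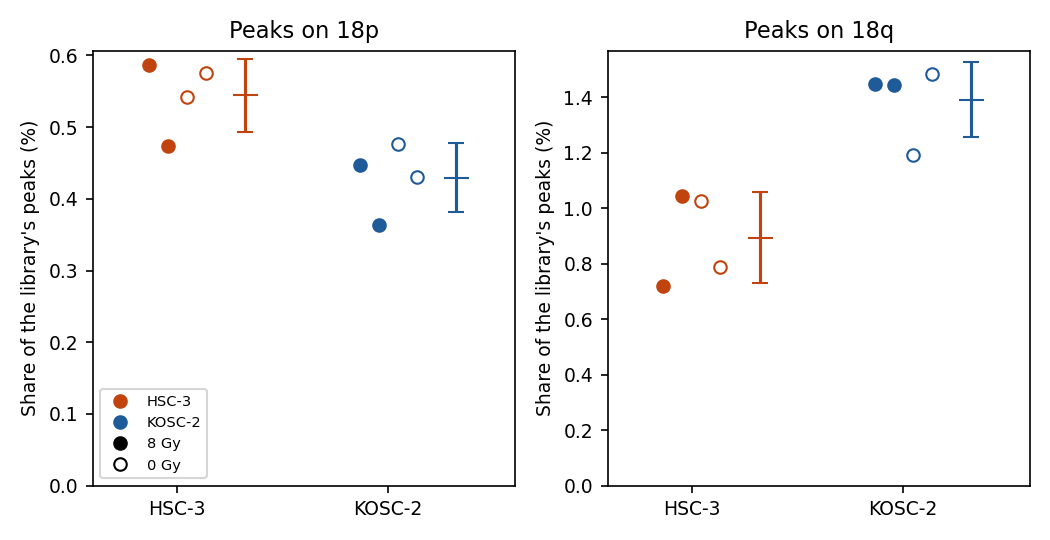
Share of each library's peaks (%) on 18p (left) and 18q (right) in HSC-3 and KOSC-2. Filled circles are 8 Gy libraries, open circles 0 Gy libraries, and the bars to the right of the circles are the mean and SD of 4 libraries. HSC-3 lay below KOSC-2 on 18q (0.894% against 1.39%), and the lines overlapped on 18p (0.544% against 0.429%).

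The balance between the arms can also be read within each library, as the part of the chromosome's peaks that lay on 18p. It is built from the shares that chose the chromosome, so it is a description with no test. The same balance on other chromosomes is not given here. In HSC-3 the 18p peaks made up 44.9% and 31.2% of the chromosome's peaks after 8 Gy and 34.6% and 42.2% after 0 Gy. In KOSC-2 they made up 23.6% and 20.1% after 8 Gy and 28.6% and 22.5% after 0 Gy. All HSC-3 values were above all KOSC-2 values, and both short HSC-3 lists had the highest shares. In lists of equal length the share was 44.9% and 38.7% in HSC-3 after 8 Gy and 37.7% and 43.3% after 0 Gy, against 23.9% and 23.1% in KOSC-2 after 8 Gy and 29.1% and 22.1% after 0 Gy, again without overlap. Put as a ratio, 18q held 1.67 ± 0.456 peaks for each 18p peak in HSC-3 and 3.29 ± 0.612 in KOSC-2 (SD, n = 4 each).

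Peaks were less dense on the long arm than on the short arm in every library. Over the 13.7 Mb between the first and last 18p regions, density was 9.64 and 14.9 peaks per Mb in HSC-3 after 8 Gy, 16.6 and 9.86 after 0 Gy, and 11.2 to 16.9 in the 4 KOSC-2 libraries. Over the 59.4 Mb between the first and last 18q regions, it was 2.73 and 7.57 in HSC-3 after 8 Gy, 7.24 and 3.11 after 0 Gy, and 7.66 to 12.6 in KOSC-2. The median 18q peak was narrower in HSC-3, 404 ± 10.6 bp in HSC-3 and 451 ± 16.4 bp in KOSC-2 (SD, n = 4 each), without overlap. Peaks of all chromosomes were narrower in HSC-3 too, with mean medians of 431 bp in HSC-3 and 467 bp in KOSC-2.

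Along the chromosome the lower share in HSC-3 was spread over most of the long arm. In windows of 10 Mb, HSC-3 was lower without overlap from 20 to 30 Mb, from 30 to 40 Mb, from 40 to 50 Mb and from 60 to 70 Mb, which is 4 of 8 windows, beside 22% of the 305 windows of the genome. It was higher without overlap in 1 of 8, the window from 0 to 10 Mb, beside 24.3% of the genome's windows. In lists of equal length 0 of 8 were higher without overlap and 5 lower. The deepest difference was between 40 and 50 Mb, where HSC-3 libraries had 0.129% and 0.188% of their peaks after 8 Gy and 0.217% and 0.115% after 0 Gy. KOSC-2 libraries had 0.337% and 0.347% there after 8 Gy and 0.248% and 0.350% after 0 Gy, so that the ratio of means was 0.506. Ratios were 0.715, 0.538 and 0.635 in the other 3 lower windows. From 50 to 60 Mb the ratio was 0.619, with 1 overlap between HSC-3 8 Gy replicate 2 (0.223%) and KOSC-2 0 Gy replicate 1 (0.201%). Among the 10 Mb windows that lie wholly on 18q, the ratio was nearest 1 at the end of the arm (0.912), with 0.133% ± 0.020 in HSC-3 and 0.145% ± 0.00494 in KOSC-2 between 70 and 80 Mb (SD, n = 4 each). In the window from 10 to 20 Mb, which holds the end of 18p and the start of 18q, the means were 0.196% in HSC-3 and 0.197% in KOSC-2.

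**Figure D2:**
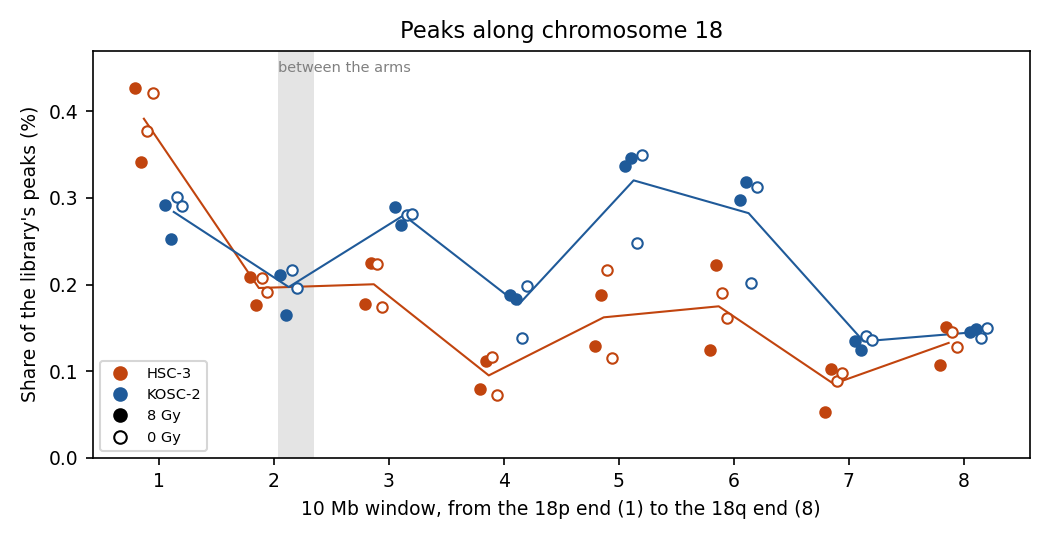
Share of each library's peaks (%) in the 8 windows of 10 Mb along chromosome 18, from the 18p end. HSC-3 stands left of KOSC-2 in each window, filled circles are 8 Gy and open circles 0 Gy libraries, lines join the means of 4 libraries, and grey marks the stretch between the arms. HSC-3 is above KOSC-2 in window 1 (0.392% against 0.284%) and below it in window 5 (0.162% against 0.320%).

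Windows of 5 Mb resolved a smaller pattern within each arm. On 18p the higher share in HSC-3 came from 5 to 10 Mb, where HSC-3 had 0.232% ± 0.0262 and KOSC-2 0.135% ± 0.0140 of peaks (SD, n = 4 each), a ratio of 1.72 without overlap. The neighbouring windows had ratios of 1.07 (0 to 5 Mb) and 1.05 (10 to 15 Mb), both with overlap. On 18q, 7 windows were lower in HSC-3 without overlap, and 1 of all 16 was higher, against 20.4% lower and 21.1% higher over 589 windows of the genome. The window from 50 to 55 Mb broke the run of lower windows, with 0.0870% ± 0.00796 in HSC-3 and 0.0878% ± 0.0211 in KOSC-2 (SD, n = 4 each), a ratio of 0.991. It lay between ratios of 0.545 (45 to 50 Mb) and 0.452 (55 to 60 Mb).

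Regions called in 4 of 4 libraries of a line and 0 of 4 of the other were on 18q mostly those of KOSC-2. Of the 1062 regions of 18q, 2 (0.188%) were HSC-3-only and 43 (4.05%) KOSC-2-only, where 0.300% of all regions of the genome were HSC-3-only and 2.07% KOSC-2-only. Of the 389 regions of 18p, 5 (1.29%) were HSC-3-only and 4 (1.03%) KOSC-2-only. By window from 0 to 80 Mb, the KOSC-2-only regions numbered 2, 2, 10, 8, 14, 6, 3 and 2, and thus stood in every window and most often between 40 and 50 Mb. HSC-3-only regions numbered 4 in the first window, 1 in the second, 1 from 30 to 40 Mb and 1 from 70 to 80 Mb. These counts depend on list length and on single libraries. In lists of equal length, 18q had 0 HSC-3-only and 19 KOSC-2-only regions, and 1 region of 18p was KOSC-2-only. Leaving out KOSC-2 0 Gy replicate 1 gave 113 KOSC-2-only regions on 18q and 12 on 18p. Leaving out HSC-3 0 Gy replicate 1 gave 77 on 18q, and leaving out HSC-3 8 Gy replicate 2 gave 65. HSC-3-only regions of 18p numbered 11 when HSC-3 0 Gy replicate 2 was left out, and those of 18q numbered 6 when HSC-3 8 Gy replicate 1 was. On 18q, KOSC-2-only regions outnumbered HSC-3-only regions under each of these settings. Over the genome they did so too in the main setting (1671 against 242), and the genome's counts under the other settings were not computed.

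The strongest HSC-3-only region of the chromosome was 7038225 to 7038964 on 18p. Its summits held 42 and 56 reads in HSC-3 after 8 Gy and 68 and 46 after 0 Gy, and the authors' fold enrichment over local background was 9.79 and 11.1 after 8 Gy and 13.2 and 11.5 after 0 Gy. It was in no KOSC-2 list, and its mean percentile by −log10 p within the HSC-3 lists was 94.7. It was the last of 12 regions between 6682787 and 7038964, which had 34 calls in HSC-3 libraries and 0 in KOSC-2 libraries. The 3 HSC-3-only regions among them followed each other when regions that neither line called in all 4 libraries are passed over. In the megabase from 6 to 7 Mb, HSC-3 libraries had 7 and 8 peaks after 8 Gy and 11 and 3 after 0 Gy, and each KOSC-2 library had 0. From 7 to 8 Mb, HSC-3 libraries together had 51 peaks and KOSC-2 libraries 24. A list omits what did not pass its threshold, so no call means that no peak passed, and the smallest summits called were 6 to 9 reads in KOSC-2. The other HSC-3-only regions of 18p were of middle or low rank, at 13800646 to 13801391 (mean percentile 47.8), 6729072 to 6730155 (47.5), 6682787 to 6683548 (40.3) and 8046387 to 8046896 (27.1). Those of 18q were 35061355 to 35061926 (43.6) and 74790480 to 74791100 (39.2).

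The strongest KOSC-2-only region of 18q was 61397709 to 61398532. Its summits held 32 and 32 reads in KOSC-2 after 8 Gy and 26 and 59 after 0 Gy, with the authors' fold at 10.3 and 11.8 after 8 Gy and 8.63 and 14.7 after 0 Gy. It was in no HSC-3 list. The next was 49686966 to 49687497, with 41 and 37 reads at the summit after 8 Gy and 21 and 37 after 0 Gy in KOSC-2. In both regions the KOSC-2 0 Gy library replicate 1 gave the lowest summit despite its depth. Next came 49763842 to 49764359, 59561409 to 59561936 and 43354058 to 43354742, with mean percentiles of 68.2, 67.0 and 61.6. Counted in the same way, the most KOSC-2-only regions to follow each other were 4, between 25695001 and 26374935, a stretch of 680 kb in which 9 regions of any kind had 0 HSC-3 calls and 24 KOSC-2 calls. Another 3 in succession began at 49686966, included 49763842 to 49764359 and ended at 51322834. On 18p the KOSC-2-only regions were 12271614 to 12272221 (mean percentile 53.3), 2325262 to 2325779 (41.8), 7946693 to 7947234 (38.5) and 12047759 to 12049114 (33.3).

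Wider than the line-only class, regions that every KOSC-2 library called were found less often in HSC-3 lists on 18q than over the genome. Of 332 such regions on 18q, HSC-3 libraries called 38.9% and 72.9% after 8 Gy and 76.2% and 41.3% after 0 Gy. Of 25638 such regions in the genome, the same libraries called 61.4% and 87.4% after 8 Gy and 88.0% and 63.4% after 0 Gy. On 18p, with 106 such regions, they called 77.4% and 93.4% after 8 Gy and 93.4% and 78.3% after 0 Gy. Each HSC-3 library thus had 18q below and 18p above its own genome-wide value, the 2 short lists included. All 4 HSC-3 libraries called 27.4% of the KOSC-2 regions of 18q and 67.9% of those of 18p, beside 50.0% over the genome, and only 1 of 39 arms was below 18q. None of them called 13% on 18q and 3.77% on 18p, beside 6.52% over the genome. In lists of equal length the share called by all HSC-3 libraries was 42.8% on 18q and 65.6% over the genome. Without the 3 libraries of lowest enrichment that share was 50% on 18q and 72.3% over the genome. In the other direction, KOSC-2 libraries called 94% to 96% of the 100 regions of 18q found in every HSC-3 library, beside 91.9% to 96.3% over the genome. On 18p they called 83.1% to 93.3% of the 89 such regions, each library below its own genome-wide value. No KOSC-2 library called 5.62% of these on 18p, beside 1.66% over the genome.

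**Figure D3:**
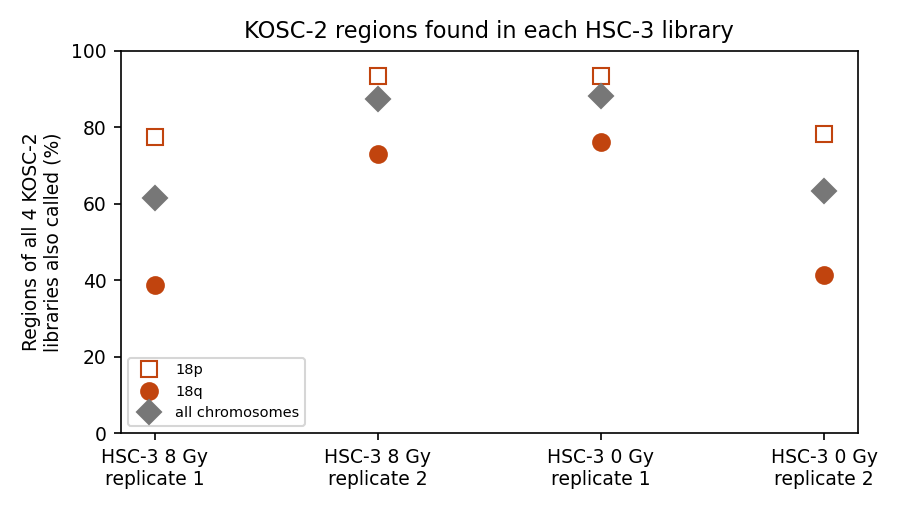
Share (%) of the regions called in all 4 KOSC-2 libraries that each HSC-3 library also called, for 18p (open squares, 106 regions), 18q (filled circles, 332 regions) and chromosomes 1 to 22 and X (diamonds, 25638 regions). In each of the 4 libraries 18q is lowest and 18p highest.

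The regions called in all 8 libraries allow read depth at the same places to be set side by side. There were 72 on 18p (18.5% of its regions) and 91 on 18q (8.57%), against 15.9% over the genome. They are the regions strong enough to be called everywhere, 163 of the 1451. For each, the pileup at the summit in reads was divided by the library's own median over all 12827 such regions, which was 28 and 39 reads in HSC-3 after 8 Gy and 42 and 21 after 0 Gy, against 61 and 49 in KOSC-2 after 8 Gy and 50 and 52 after 0 Gy. On the log2 scale the median relative pileup of 18q was −0.49 and −0.43 in HSC-3 after 8 Gy and −0.35 and −0.58 after 0 Gy. In KOSC-2 it was 0.092 and 0.17 after 8 Gy and −0.059 and 0.18 after 0 Gy. The means were −0.46 ± 0.10 in HSC-3 and 0.095 ± 0.11 in KOSC-2 (SD, n = 4 each), a difference of −0.56, the lowest of 39 arms, of which 38.5% were lower in HSC-3 without overlap. The lowest KOSC-2 value was again that of the 0 Gy library replicate 1. On 18p the lines overlapped and the difference was 0.040.

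Summit pileup and local background were both lower in HSC-3 on 18q, but they are not separate observations. In the regions named here the background was mostly a whole number of reads per 10 kb, like a count over a window. The sources used here do not say that a peak's own reads are left out of it. The local background against which each summit was tested, again over the library's median, was lower in HSC-3 on 18q by a median log2 difference of −0.65, also the lowest of 39 arms, of which 30.8% were lower without overlap. On 18p the difference was 0.032 with overlap. The fold enrichment divides pileup by background after the same small constant is added to each. It differed less: on 18q its median log2 difference was −0.089 and the lines overlapped. As a percentile among shared regions the fold had an 18q median of 57.6 ± 3.58 in HSC-3 and 66.2 ± 4.85 in KOSC-2 (SD, n = 4 each), without overlap, as in 10.3% of arms. The percentile of −log10 p among shared regions had an 18q median of 39.2 ± 3.27 in HSC-3 and 60.9 ± 1.10 in KOSC-2 (SD, n = 4 each), without overlap, as in 38.5% of arms. Fewer copies of the arm and less open chromatin per copy cannot be told apart in peak lists.

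**Figure D4:**
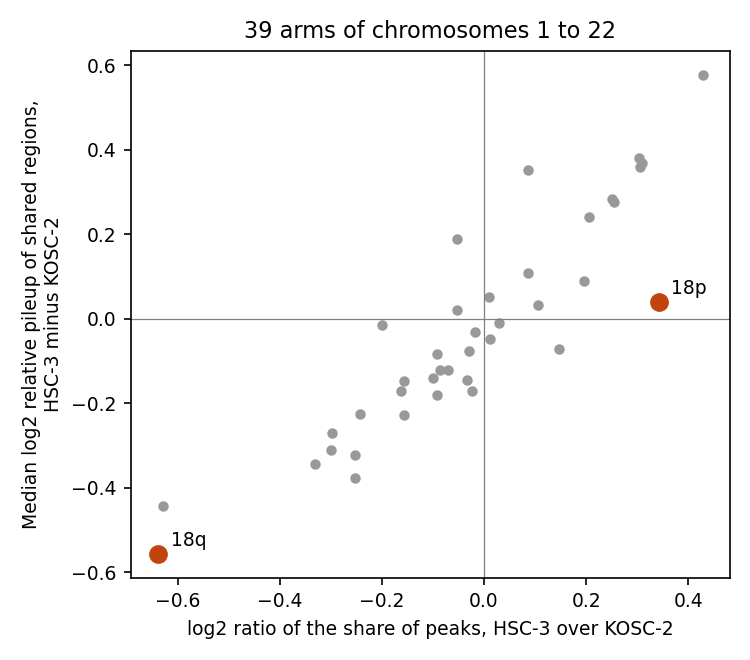
Each point is 1 of 39 arms of chromosomes 1 to 22. The x axis is the log2 ratio of the mean share of peaks, HSC-3 over KOSC-2, and the y axis the median log2 relative pileup of regions called in all 8 libraries, HSC-3 minus KOSC-2. The point of 18q is the lowest on both axes (y = −0.56), and 18p lies far to the right with y near 0 (0.040).

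Among single shared regions of 18q, 77 of 91 had a lower mean relative pileup in HSC-3. In 42 of them (46.2%) all HSC-3 values were below all KOSC-2 values, and in 5 (5.49%) above, beside 11.8% and 15.3% of the 12827 regions of the genome. On 18p, 0 of 72 were lower without overlap and 7 (9.72%) higher. The median log2 difference was −0.57 on 18q (interquartile range −0.76 to −0.15) and 0.076 on 18p, and 0.044 over the genome. Leaving out KOSC-2 0 Gy replicate 1 gave 15 of 72 higher without overlap on 18p and 53 of 91 lower on 18q, where the genome had 21.3% higher and 16.2% lower. Leaving out HSC-3 0 Gy replicate 2 gave 11 higher on 18p, beside 18.6% of the genome, and leaving out HSC-3 8 Gy replicate 2 gave 3 lower there, beside 13.8%.

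Neighbouring regions of the same direction were joined into series, of which the longest lay on 18q. They were delimited after the values were seen, each ending where the sign of the difference changed. A shared direction within a series thus holds by definition, and only the length and the values of a series describe the data. From 21718611 to 48724906, a stretch of 27.0 Mb, all 36 shared regions had a lower mean relative pileup in HSC-3, with a median log2 difference of −0.67 in pileup and −0.81 in local background. From 54305233 to 74518796, over 20.2 Mb, all 24 did, with medians of −0.66 in pileup and −0.75 in background. Within these series 21 and 15 regions had no overlap between the lines. The lowest single difference was at 21977165 to 21978263 (−1.19). Nearer the centromere, a shorter series of 5 regions from 19180021 to 19321774 was also lower in HSC-3 (median −0.70, 4 without overlap). The other regions between 18.5 Mb and the start of the series of 36 went both ways. One of them, 21452526 to 21453241, was the shared region of 18q with the highest mean percentile in its lists (97.7) and was higher in HSC-3: its summits held 67 and 84 reads in HSC-3 after 8 Gy and 113 and 50 after 0 Gy, against 91 and 75 in KOSC-2 after 8 Gy and 92 and 100 after 0 Gy. Relative to the library medians its log2 difference was 0.51, without overlap.

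Between the long series the direction was mixed, and a short stretch, delimited by sign in the same way, had the opposite direction. Before that stretch, 51549590 to 51550248 was higher in HSC-3 (0.62, with overlap). The 3 shared regions from 51750537 to 51884869 were lower (median −0.71, 2 without overlap). From 52442921 to 53983465, over 1.54 Mb, all 6 shared regions had a higher mean relative pileup in HSC-3, with log2 differences of 0.41 to 1.22 (median 0.79), and 4 of them had no overlap. Local background, which may include the same reads, was higher in HSC-3 in 6 of 6, with a median of 0.79. At 52490222 to 52490853 the summits held 31 and 32 reads in HSC-3 after 8 Gy and 36 and 26 after 0 Gy, against 31 and 18 in KOSC-2 after 8 Gy and 25 and 18 after 0 Gy. As log2 over the library medians these were 0.15 and −0.29 in HSC-3 after 8 Gy and −0.22 and 0.31 after 0 Gy, against −0.98 and −1.44 in KOSC-2 after 8 Gy and −1.0 and −1.53 after 0 Gy. At 53523319 to 53523892 the log2 difference was 1.18, with 28 and 46 reads in HSC-3 after 8 Gy and 37 and 21 after 0 Gy, against 34 and 25 in KOSC-2 after 8 Gy and 15 and 24 after 0 Gy. The region after the stretch, 54305233 to 54306357, was again lower in HSC-3 (−0.60, without overlap).

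On 18p the shared regions higher in HSC-3 gathered in its middle. Those without overlap were no more frequent than over the genome, with 7 of 72 (9.72%) beside 15.3%. These series, too, were delimited by the sign of the difference after the values were seen, and none were delimited on other chromosomes. All 13 from 7950661 to 9117709 had a higher mean relative pileup in HSC-3, with a median log2 difference of 0.38 and 4 without overlap. Local background, which may include the same reads, was higher in 13 of 13 (median 0.34). All 8 from 9719315 to 11670039 had a higher mean relative pileup too (median 0.54, 3 without overlap). The highest single value of the arm was at 8948513 to 8949684 (1.15), where summits held 26 and 43 reads in HSC-3 after 8 Gy and 41 and 29 after 0 Gy, against 30 and 18 in KOSC-2 after 8 Gy and 36 and 23 after 0 Gy. Closer to the centromere the direction changed, and all 5 shared regions from 12255489 to 12741854 were lower in HSC-3 by mean (median −0.19), with overlap in each. The shared region of 18p with the highest mean percentile (99.6), 11980462 to 11981884, had 88 and 140 reads in HSC-3 after 8 Gy and 110 and 62 after 0 Gy, against 173 and 133 in KOSC-2 after 8 Gy and 156 and 124 after 0 Gy. Over the library medians its lines overlapped.

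**Figure D5:**
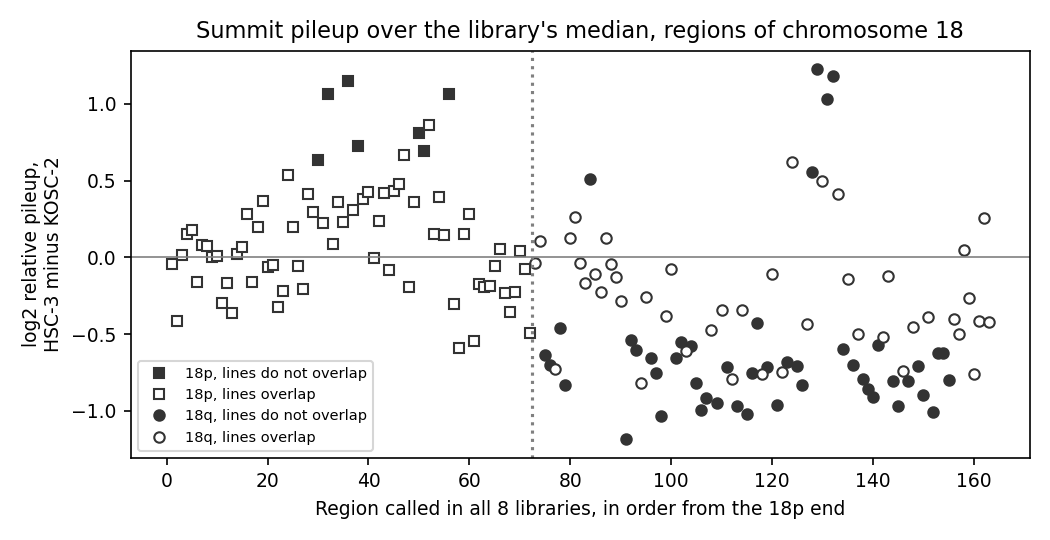
Difference in log2 relative summit pileup (HSC-3 minus KOSC-2) for the 163 regions of chromosome 18 called in all 8 libraries, in order from the 18p end and not to distance. Squares are 18p and circles 18q, filled where the lines do not overlap, and the dotted line separates the arms. On 18q 77 of 91 regions lie below 0, and 6 neighbours lie between 0.41 and 1.22.

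Irradiation was compared within the lines, a contrast that did not choose the chromosome. No change in either arm passed the test. On 18q the share of peaks averaged 0.882% after 8 Gy and 0.907% after 0 Gy in HSC-3, and 1.45% after 8 Gy and 1.34% after 0 Gy in KOSC-2 (n = 2 each). The difference of 0.0433 percentage points over both lines had an exact two-sided permutation p of 0.944, with dose exchanged within each line (36 assignments, smallest possible p 0.0556), and 0.995 after Benjamini-Hochberg adjustment over 39 arms. Its sign turned when HSC-3 8 Gy replicate 2 (−0.0378), HSC-3 0 Gy replicate 2 (−0.0162) or KOSC-2 0 Gy replicate 1 (−0.0298) was left out, and in lists of equal length (−0.00333). On 18p the difference was −0.0383 percentage points (exact permutation p = 0.389, adjusted 0.942), with −0.0281 in HSC-3 and −0.0485 in KOSC-2. With 1 library left out it lay between −0.0666 (HSC-3 8 Gy replicate 1) and −0.0100 (HSC-3 8 Gy replicate 2), and was −0.0592 and −0.0174 with KOSC-2 8 Gy replicate 1 or 2 left out. In the 8 windows of 10 Mb, exact permutation p ran between 0.389 and 0.944, and each was 0.993 after adjustment over 305 windows. With 2 libraries per line and dose an unadjusted p under 0.05 could not be reached, so 0 of 39 arms (0.00%) and 0 of 305 windows (0.00%) had one. The smallest possible p was met by 7 windows of the genome (2.3%), none of them on chromosome 18. The relative pileup of shared regions, tested the same way, differed by 0.039 on 18q (exact permutation p = 0.611, adjusted 0.851) and by −0.070 on 18p (p = 0.833, adjusted 0.929) on the log2 scale.

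Gained regions, present in the 2 lists of a line after 8 Gy and in none of its 0 Gy lists, and lost regions, with the opposite pattern, were few on both arms. In HSC-3, 7 regions of 18q were gained and 14 lost among 585 called in the line (1.20% and 2.39%), and 4 gained and 7 lost among 284 on 18p, beside 1.0% gained and 1.41% lost over the genome. In KOSC-2, 47 regions of 18q were gained and 9 lost among 952 (4.94% and 0.945%), and 9 gained and 2 lost among 304 on 18p, beside 4.19% gained and 1.04% lost over the genome. With 2 libraries on each side these counts have no test, and they follow single libraries. The highest values with 1 library left out were 130 gained on 18q in HSC-3 without the 8 Gy library replicate 1 and 115 lost without the 0 Gy library replicate 2, which are the 2 short lists. In KOSC-2 they were 173 gained on 18q without the 0 Gy library replicate 2 (171 without the 8 Gy library replicate 2) and 88 lost without the 0 Gy library replicate 1. On 18p the gained regions numbered up to 34 in HSC-3 without the 8 Gy library replicate 1 and up to 52 in KOSC-2 without the 8 Gy library replicate 2, and the lost up to 56 and up to 38 without the 0 Gy library replicate 2 of the line. Leaving out each of the other libraries in turn gave counts within these limits.

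The gained region of highest rank in HSC-3 was 7022297 to 7022658 on 18p, inside the stretch without KOSC-2 peaks, with 24 and 16 reads at the summit after 8 Gy and no call after 0 Gy. In KOSC-2 it was 47810595 to 47810981 on 18q, with 58 and 48 reads after 8 Gy. Its local background was 433 and 316 reads per 10 kb there, so the authors' fold was low, 4.22 and 4.68. The lost region of highest rank was 53445974 to 53446457 on 18q in HSC-3, with 28 and 15 reads after 0 Gy and no call after 8 Gy. In KOSC-2 it was 45599590 to 45600083 on 18q, with 19 and 29 reads after 0 Gy. This region was also called in both 0 Gy libraries and neither 8 Gy library of HSC-3, with 15 and 10 reads after 0 Gy. How many lost regions the lines share is not given here, and HSC-3 8 Gy replicate 1 is a short list. The second of each kind were gained at 20887542 to 20887942 and lost at 28835911 to 28836321 in HSC-3, and gained at 26745044 to 26745653 and lost at 8260260 to 8260710 in KOSC-2.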

How the data were processed

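Each of the 8 ATAC-seq libraries came as its own peak list, so no replicates were pooled in a list. Per the submitters' processing notes, the tools were MACS2 2.2.6, Bowtie2 2.3.4.2, deepTools, SAMtools 1.9 and FastQC 0.11.7 on build hg19. Their parameters, duplicate handling and any Tn5 shift: not given in the sources used here. The authors deposited for each peak an integer score and, for its summit, −log10 p-value, −log10 q-value and a ratio, the fold enrichment over local background in that library. The lowest −log10 q was 2.02 and the narrowest peak 300 bp.

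Groups and replicate numbers came from the labels. Summit pileup and local background were recovered from fold and p, trying pileups of 2 to 400 reads. In each list 100% of peaks came within 0.0001 of the deposited −log10 p. Depth was the smallest background found in a list, scaled to 10 kb. Read totals were not used, so no interval was computed. Pairs of lists held 0 identical lines. Arms of other chromosomes were split at their longest stretch without a peak, and X was left out of the arms. A merged region counted as called by a library that had at least 1 peak inside.

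The regions named were, on each arm, all HSC-3-only and the top 5 KOSC-2-only regions, the top 3 regions called in all 8 libraries, the longest run of each class (passing over regions that neither line called in all 4 libraries), and the top 2 gained and lost regions per line, by mean percentile of −log10 p. Other regions, 5 Mb and 1 Mb windows and series were chosen after their values were seen. The chromosome, its arms and the rules were chosen with earlier results of these data known. Recovered pileups, the single shared regions and the arm balance in lists of equal length were added after the data were seen. Alternatives were lists of equal length (22504 peaks of highest −log10 p), covered bases, regions of at least 2 libraries, calls in at least 3 of 4 libraries, a −log10 q of 5 or more, 50% coverage, windows of 5 Mb, a replicate block and libraries left out. The software was matplotlib 3.10.9, scipy 1.17.1, pandas 2.3.3 and numpy 2.4.6 under Python 3.11.15, and the functions were tested on simulated lists.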

Additional observations from a re-analysis of the deposited data

Results flagged for a closer look

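The KOSC-2 0 Gy library replicate 1 stood apart from the other 3 KOSC-2 libraries in 2 measures. Its 18q share was 1.19%, against 1.45% to 1.48% in the others, a gap of 0.874 of the range of the 4 libraries. Between 40 and 50 Mb it held 0.248% of its peaks, against 0.337% to 0.350%, a gap of 0.871 of the range. Both values lie on the side of HSC-3. These were 2 of 20 sets of 4 libraries examined, where chance gives about 1 in 20, and the window is part of the arm. The library was also the deepest (64.8 reads per 10 kb) and among the 3 of lowest enrichment, whose part in these values was not tested.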

How the results depend on the processing

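The difference in 18q share between the lines kept its direction without overlap under all 13 alternatives (−0.565 to −0.439 percentage points with 1 library left out), and that of 18p its direction (0.0927 to 0.138). The lines did not overlap on 18p with a −log10 q of 5, regions of at least 2 libraries, or without the 3 libraries of lowest enrichment. Nor did they without HSC-3 8 Gy replicate 2 or without KOSC-2 0 Gy replicate 1, and under the other alternatives they overlapped. The 18q ratio ranked lowest of 39 arms in 5 of the 13 and second lowest in 8. Lists of equal length gave 0 windows of 10 Mb higher in HSC-3, 0 HSC-3-only regions on 18q, 1 KOSC-2-only on 18p and 19 on 18q, a dose difference of −0.00333 on 18q, 42.8% of KOSC-2 regions of 18q found in HSC-3, and 8 gained regions on 18p in HSC-3, 2 gained and 4 lost on 18p and 12 gained on 18q in KOSC-2. Windows of 5 Mb gave 7 lower, a −log10 q of 5 gave 1 HSC-3-only region on 18q, and 50% coverage 3 on 18p. Calls in 3 of 4 libraries gave 13 and 7 HSC-3-only regions on 18p and 18q, and 14 and 128 KOSC-2-only regions. Without the 3 libraries of lowest enrichment they were 27 and 26, and 12 and 120, with 79.4% and 50% of KOSC-2 regions found in HSC-3, and shared regions numbered 3 lower and 24 higher of 72 on 18p and 59 lower and 10 higher of 91 on 18q, beside 24.9% lower and 29.1% higher in the genome. The −log10 p percentile difference of 18q (−21.7) was −8.60 with fold, where the lines did not overlap either, −30.0 with pileup and −28.0 with local background. For line-only regions the genome's counts under these settings were not computed. Causes of the other changes were not tested.

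With 1 library left out, HSC-3-only regions ranged over 5 to 11 on 18p and 2 to 6 on 18q, KOSC-2-only over 4 to 12 and 44 to 113, shared regions of 18p lower over 0 to 3 and higher over 7 to 15, and the 18q dose difference over −0.0378 to 0.124. Gained regions ranged over 4 to 34 (18p) and 7 to 130 (18q) in HSC-3 and 15 to 52 and 60 to 173 in KOSC-2, and lost regions over 9 to 56 and 16 to 115 in HSC-3 and 4 to 38 and 14 to 88 in KOSC-2.

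Deviations of same-numbered libraries over 39 arms correlated at −0.264 in HSC-3 and 0.344 in KOSC-2, 1 value per line and of opposite sign, so the numbers were not taken to pair the libraries. With a replicate block (16 assignments, smallest p 0.125) the dose differences stayed −0.0383 on 18p (exact permutation p = 0.375) and 0.0433 on 18q (p = 1). No block could reach a p under 0.05, so its 0 calls, also with the numbers crossed in HSC-3, were fixed in advance. Summits under 5 to 9 reads were not detectable, so a missing call in a shallow list is not absence.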
